A study of Mus musculus with 4 samples.

Results

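The protein kinase C (PKC) genes of the mouse trigeminal ganglion were taken by symbol from the deposited table of transcript abundance. They were Prkca, Prkcb, Prkcd, Prkce, Prkch, Prkcq, Prkcz and Prkci, so 8 of the 56035 gene rows, and each symbol matched 1 row. RNA came from the trigeminal ganglion, which holds the sensory neurons of the face. The mice were 8 weeks old, male and C57BL/6. Of the 4 libraries 2 were wild-type (WT) and 2 came from littermates with the TRPV1 K823R allele, in which a lysine codon of Trpv1 is replaced by one for arginine. The labels call these animals transgenic in one field and knock-in in another, and do not say whether they were heterozygous or how many animals stand behind a library. The spread that p-values rest on is thus that of these 4 libraries and may be technical. TPM, a transcript abundance, is scaled to transcript length and to one total per library, so levels of different genes can be set side by side, but the read depth of each library is unknown.

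PKC enzymes are serine and threonine kinases held inactive by an inhibitory stretch of their own chain until a second messenger releases it. Conventional isoforms (cPKC) need calcium and diacylglycerol, nPKC isoforms need diacylglycerol alone, and atypical isoforms (aPKC) respond to neither and are steered by protein partners. In nociceptors, Gq-coupled receptors such as the H1 histamine receptor act through phospholipase C to make diacylglycerol, and PKC phosphorylation sensitises TRPV1, the heat and capsaicin channel. The comparison addresses whether the transcripts of these kinases differ when the lysine of TRPV1 is lost, in a series on TRPV1 SUMOylation, itch and H1 receptors.

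Gene-level values pool all transcripts of a locus, and for 2 of the isoforms RefSeq lists start sites far apart. These are Prkcd and Prkcz, whose upstream sequences are shown so that the pooled starts can be seen. In brain, Prkcz is known for an internal start that yields PKMzeta, a kinase lacking the regulatory part of the protein. The 250 bases before a start are printed 5′ to 3′ on the gene's strand (RefSeq, GRCm38.p6), with capitals marking GC boxes (GGGCGG, or CCGCCC on the other strand). The Prkcd windows are chr14:30626209-30626458 for the outer start and chr14:30610311-30610560 for the inner, and those of Prkcz are chr4:155361429-155361678 and chr4:155345790-155346039, all on the minus strand.
Prkcd outer start: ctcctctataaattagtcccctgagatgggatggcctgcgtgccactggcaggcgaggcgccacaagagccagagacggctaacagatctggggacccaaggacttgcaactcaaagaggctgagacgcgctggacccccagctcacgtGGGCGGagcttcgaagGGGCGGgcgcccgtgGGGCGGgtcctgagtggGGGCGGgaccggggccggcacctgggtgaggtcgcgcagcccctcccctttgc
Prkcd inner start: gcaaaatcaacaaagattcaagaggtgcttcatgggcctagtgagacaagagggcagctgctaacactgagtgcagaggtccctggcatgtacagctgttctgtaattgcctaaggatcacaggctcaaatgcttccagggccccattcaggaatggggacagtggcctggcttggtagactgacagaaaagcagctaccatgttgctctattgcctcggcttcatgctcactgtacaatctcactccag
Prkcz outer start: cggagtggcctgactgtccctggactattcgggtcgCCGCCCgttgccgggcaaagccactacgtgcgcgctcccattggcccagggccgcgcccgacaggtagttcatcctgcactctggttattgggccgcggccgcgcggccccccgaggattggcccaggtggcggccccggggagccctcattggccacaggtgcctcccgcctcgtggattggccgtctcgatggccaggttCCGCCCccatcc
Prkcz inner start: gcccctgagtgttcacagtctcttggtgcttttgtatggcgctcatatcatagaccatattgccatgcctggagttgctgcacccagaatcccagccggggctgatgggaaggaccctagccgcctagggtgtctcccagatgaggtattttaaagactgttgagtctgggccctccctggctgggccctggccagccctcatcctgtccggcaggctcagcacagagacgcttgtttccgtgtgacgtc

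The outer window of Prkcd held 18 CpG dinucleotides and 4 GC boxes, and its inner window 1 CpG and 0 GC boxes. For Prkcz the outer window held 25 CpG and 2 GC boxes, and the inner window 7 CpG and 0 GC boxes. The median over 32851 RefSeq start windows of that length was 6 CpG, and 32.7% of them had a GC box. A further inner window of Prkcz held 10 CpG and 2 GC boxes, as many boxes as the outer, and is not printed because it lies within annotated transcript. The TPM values do not say how much of each gene's signal came from either start. The table of start windows also held 1 window each for Prkca, Prkcb, Prkcq and Prkci, with 17 to 39 CpG and 1 or 2 GC boxes. Prkce and Prkch were not matched in it.

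The 8 genes lie on 8 chromosomes (GENCODE M21, GRCm38). Prkca spans 107933387 to 108343928 on chromosome 11, Prkcb 122288751 to 122634402 on chromosome 7, and Prkcd 30595354 to 30626210 on chromosome 14. Prkce spans 86167785 to 86657919 on chromosome 17, Prkch 73584796 to 73778185 on chromosome 12, and Prkcq 11172108 to 11301222 on chromosome 2. Prkcz spans 155260129 to 155361361 on chromosome 4 and Prkci 30995747 to 31052959 on chromosome 3. The authors' deposited domain annotation gave the kinase domain and the C1 domain, which binds diacylglycerol in cPKC and nPKC, to all 8. It gave the C2 domain, a membrane-binding fold that senses calcium in cPKC, to Prkca, Prkcb, Prkce and Prkch, and the PB1 domain, a docking surface for partner proteins, to Prkcz and Prkci alone. In the same annotation 6 of the 8, all but the 2 aPKC genes, belonged to the pathway in which inflammatory mediators regulate TRP channels.

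Prkcd was the most abundant PKC transcript of the ganglion and Prkch the scarcest member. Mean TPM over the 4 libraries ran in the order Prkcd 135, Prkcz 76.7, Prkcb 69.5, Prkce 68.3, Prkca 56.2, Prkcq 26.8, Prkci 20.7 and Prkch 4.68. The ranges of neighbours in this order did not overlap except for Prkcz with Prkcb and Prkcb with Prkce. Prkcz exceeded Prkcb in 4 of 4 libraries, by a mean ratio of 1.10, and Prkcb exceeded Prkce in 3 of 4, by 1.02. Prkcd stood 1.76 times above Prkcz, and Prkci 4.43 times above Prkch. The level of Prkcd exceeded that of 92.0% of the 15390 genes tested, that of Prkch 24.8%.

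**Figure D1:**
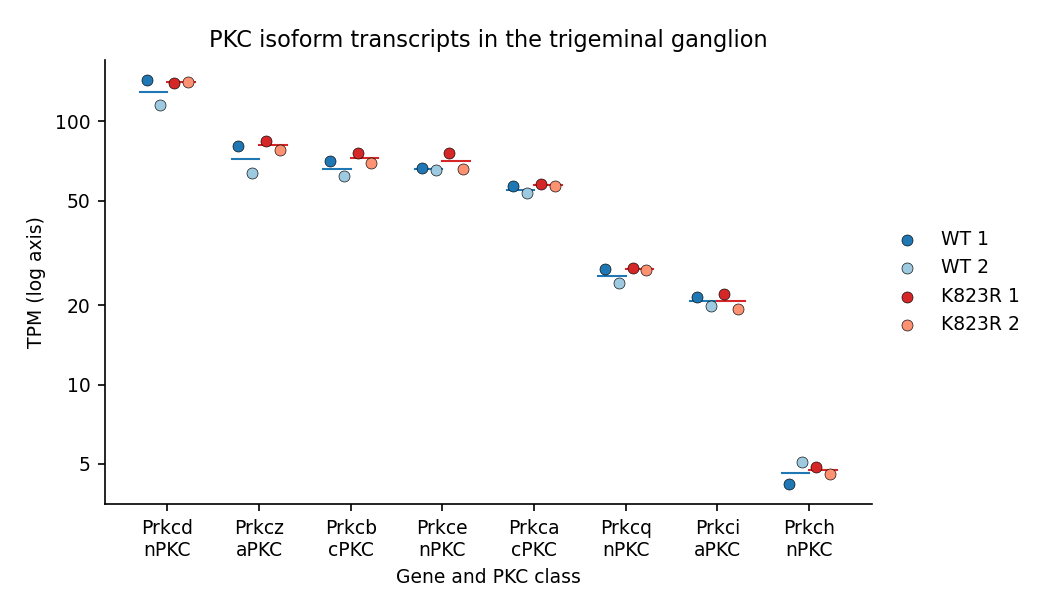
TPM on a log axis for each PKC isoform, with 1 point per library and a horizontal line at each group's mean (2 libraries each). Prkcd lies between 115 and 143 TPM and Prkch between 4.2 and 5.07 TPM, and the points of the genotypes overlap for 7 of the 8 genes.

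No PKC isoform passed the test between genotypes. By limma 0 of the 8 had an adjusted p below 0.05, against 0.00650% of all 15390 genes tested (1 gene), and 0 had an unadjusted p under 0.05, against 4.76%. As deposited, 7 of the 8 had a higher mean log2(TPM + 1) in K823R, against 57.4% of all genes, and that count was 6 under quantile normalization (49.2% of all genes) and 5 relative to sensory neuron markers (40.0%). Their median log2 difference was 0.09, against 0.03 for all genes. Without WT replicate 2 that median was 0.014, without WT replicate 1 0.138 and without K823R replicate 1 0.059. The groups were apart with K823R higher for 1 of the 8, against 19.4% of all genes, and with K823R lower for 0, against 14.6%. An exact permutation test of 2 libraries against 2 cannot give a p under 0.333, so the p-values of single genes come from limma alone.

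**Figure D2:**
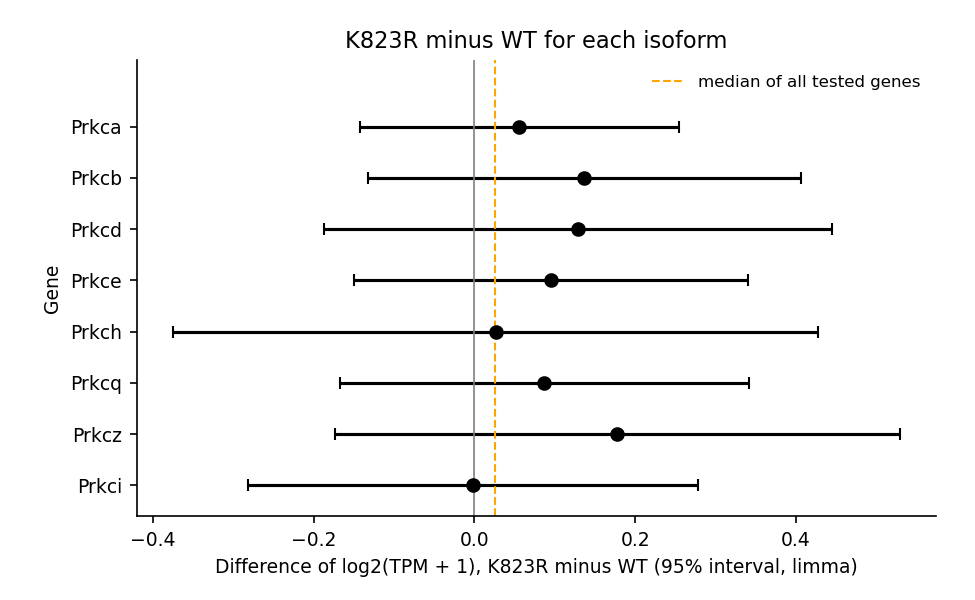
Difference of log2(TPM + 1), K823R minus WT, for each isoform, with the 95% interval from limma over 2 libraries per group; the dashed line is the median of all tested genes, 0.03. All 8 intervals include 0, and that of Prkcz extends furthest from 0, to 0.53.

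Among the cPKC isoforms, Prkca, the alpha isoform, was the member with the least spread between libraries. It measured 56.54 and 53.58 TPM in the WT libraries against 57.65 and 56.87 TPM in the K823R ones. The K823R libraries were just above the WT ones, and the highest was 1.08 times the lowest. Its log2 difference was 0.06, with standard error (SE) 0.075 and a 95% interval from -0.14 to 0.25 (limma, adjusted p = 0.941). Relative to sensory neuron markers that difference was -0.006. Prkcb, whose splice forms beta I and beta II are pooled here, measured 70.57 and 61.72 TPM in the WT libraries against 76.09 and 69.41 TPM in the K823R ones. The groups overlapped, with WT replicate 2 lowest and K823R replicate 1 highest. Its log2 difference was 0.14, SE 0.10 (95% interval -0.13 to 0.41, limma adjusted p = 0.918). It ran from 0.042 without WT replicate 2 and 0.072 without K823R replicate 1 up to 0.232 without WT replicate 1.

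Of the nPKC isoforms, Prkcd encodes the delta isoform, widely expressed and tied to apoptosis and immune signalling. It measured 143.24 and 115.34 TPM in the WT libraries against 140.36 and 140.97 TPM in the K823R ones. A single library, WT replicate 2, was low, and WT replicate 1 was the highest of the 4. The log2 difference was 0.13, SE 0.12 (95% interval -0.19 to 0.45, limma adjusted p = 0.929), and it was -0.026 without WT replicate 2 and 0.284 without WT replicate 1. Over the alternatives its adjusted p ran from 0.656 to 1.0.

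Prkce encodes the epsilon isoform, known in nociceptors for sensitising TRPV1 and for its part in inflammatory pain. It measured 66.38 and 65.58 TPM in the WT libraries against 75.45 and 65.96 TPM in the K823R ones. Here K823R replicate 1 alone was high and the other 3 libraries lay within 1 TPM of each other. The log2 difference was 0.10, SE 0.093 (95% interval -0.15 to 0.34, limma adjusted p = 0.934). Leaving out K823R replicate 1 gave -0.000405, and leaving out K823R replicate 2 gave 0.191.

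Prkcq encodes the theta isoform, known for T cell receptor signalling and present in skeletal muscle. It measured 27.5 and 24.36 TPM in the WT libraries against 27.78 and 27.35 TPM in the K823R ones, with WT replicate 2 below the other 3 libraries. The log2 difference was 0.09, SE 0.097 (95% interval -0.17 to 0.34, limma adjusted p = 0.935), and it was 0.003 without WT replicate 2 and 0.172 without WT replicate 1. The 10 T and NK cell genes summed to between 4.7 and 5.8 TPM per library, with Cd3e, a defining T cell gene, at 0.09 to 0.53 TPM. The 7 skeletal muscle genes summed to between 3.7 and 6.4 TPM. The part of those cells in the Prkcq values was not tested.

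Prkch, the eta isoform of epithelia and lymphocytes, was the single member with WT replicate 1 lowest. It measured 4.2 and 5.07 TPM in the WT libraries, the lowest and the highest of the 4, against 4.86 and 4.59 TPM in the K823R ones. The log2 difference was 0.03, SE 0.15 (95% interval -0.38 to 0.43, limma adjusted p = 0.99), and its sign changed under quantile normalization (-0.023). Prkch is also known from endothelium, whose markers were lowest in WT replicate 1 for 6 of 7 genes. Their sums were 79.7 TPM there and 96.6 to 104 TPM in the others, highest in K823R replicate 1. Several other marker lists, given below, also had WT replicate 1 lowest for most genes. The part of endothelial cells in the Prkch values was not tested. The share of all tested genes lowest in WT replicate 1 was not computed.

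The aPKC isoforms Prkcz and Prkci encode zeta and iota, kinases of the Par polarity complex. As deposited, Prkcz had the largest difference of the 8. It measured 80.54 and 63.66 TPM in the WT libraries against 84.27 and 78.13 TPM in the K823R ones. WT replicate 2 was again the low library, and WT replicate 1 lay between the K823R libraries. The log2 difference was 0.18, SE 0.13 (95% interval -0.17 to 0.53, limma adjusted p = 0.918), and it was 0.011 without WT replicate 2 and 0.345 without WT replicate 1. Prkci measured 21.53 and 19.89 TPM in the WT libraries against 22.0 and 19.42 TPM in the K823R ones. Both groups had the same mean of 20.71 TPM, with a log2 difference of -0.002, SE 0.11 (95% interval -0.28 to 0.28, limma adjusted p = 0.998).

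Reads of some members can also fit other loci. The Prkcz2 transcript, of 1756 bases, matched Prkcz at 98.6% identity over 1755 bases. It was listed at 0.05 to 0.14 TPM, and how the authors' tools divided reads between the pair is not given in the sources used here. At 95% identity over at least 150 bases, at least 1 annotated Prkcq transcript shared a stretch of up to 440 bases with transcripts of 37 other genes. For Prkci there were 5 such genes with up to 164 bases. A Prkce stretch of 348 bases matched an overlapping unnamed locus listed at 0 in every library. Prkca, Prkcb, Prkcd and Prkch had no such match, though exons of Prkca overlap Apoh on the opposite strand, a gene at 4.16 to 5.09 TPM.

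As a pool, the 8 transcripts measured 470.5 and 409.2 TPM in the WT libraries against 488.5 and 462.7 TPM in the K823R ones. WT replicate 2 was the low library and WT replicate 1 lay between the K823R libraries. The log2 ratio of the group means was 0.11, with no test. Leaving out WT replicate 2 gave 0.015, leaving out WT replicate 1 gave 0.217 and leaving out K823R replicate 1 gave 0.073. The cPKC isoforms held 27.0% to 28.2% of the pool per library, the nPKC isoforms 50.9% to 51.6% and the aPKC isoforms 20.4% to 21.8%. Prkcd alone held 30.4% and 28.2% in WT and 28.7% and 30.5% in K823R. Prkcz held 17.1% and 15.6% in WT and 17.3% and 16.9% in K823R, and Prkch held 0.893% to 1.24% in all.

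**Figure D3:**
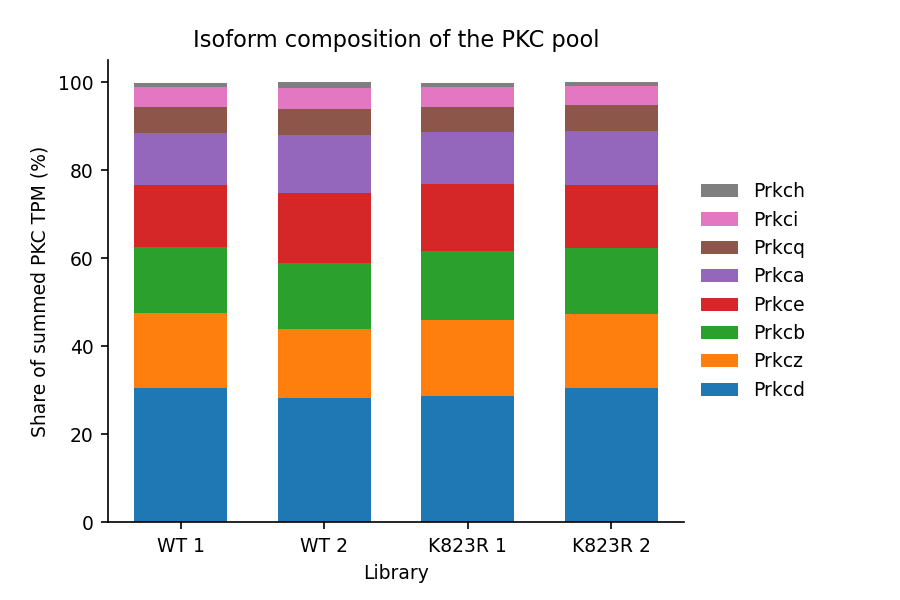
Share of the summed PKC TPM held by each isoform, in percent, 1 stacked bar for each of the 4 libraries. Prkcd is the largest part of every bar at 28.2% to 30.5%, and the order of the parts is nearly the same in the 4 bars.

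Most isoforms shared a pattern over the 4 libraries. Part of it lay between replicates of the same genotype. With 2 libraries per group, its part in the K823R minus WT differences was not tested. WT replicate 2 was the lowest library for 6 of the 8, against 36.3% of all tested genes and 42.8% of the 9100 genes that averaged 10 TPM or more. K823R replicate 1 was the highest for 6 of the 8, against 34.5% of those 9100 genes. WT replicate 1 exceeded WT replicate 2 for 7 of the 8, against 58.4% of tested genes, and K823R replicate 1 exceeded K823R replicate 2 for 7, against 59.9%. Prkch in WT and Prkcd in K823R were the exceptions.

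Markers of sensory neurons followed part of this pattern. The 10 genes included Prph, Nefh, Calca and Trpv1, each lowest in WT replicate 2. The 10 genes together summed to 6305 and 5483 TPM in the WT libraries against 6275 and 5988 TPM in the K823R ones. Their sum was highest in WT replicate 1, whereas K823R replicate 1 was highest for most isoforms. WT replicate 2 was lowest for 7 of the 10, against 42.8% of genes that averaged 10 TPM or more. K823R replicate 2 was lowest for the rest. Trpv1 itself, the gene that carries the change, measured 39.17 and 30.62 TPM in the WT libraries against 40.92 and 35.01 TPM in the K823R ones. Satellite glia markers ran the other way, with sums of 897 and 1133 TPM in the WT libraries against 1000.4 and 1165 TPM in the K823R ones. In a bulk sample, fewer cells of a type and less RNA per cell cannot be told apart. Set against the neuron marker sum, the PKC pool was 7.46% in both WT libraries and 7.78% and 7.73% in the K823R libraries. Both K823R values lay above both WT values, a log2 ratio of 0.055 with no test. Singly, Prkcb and Prkcz were apart in the same way, and the groups overlapped for the other isoforms. Prkcd, for one, was 2.27% and 2.1% in WT against 2.24% and 2.35% in K823R. The share of all genes apart on this scale was not computed. The part of neuron content in the PKC values was not tested further.

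Several lists of markers of other cells had another low library. WT replicate 1 was the lowest library for 8 of 8 tested CNS glia genes and 8 of 8 macrophage genes. The same held for 8 of 8 fibroblast and meningeal genes and 6 of 7 Schwann cell genes. The share of all tested genes with WT replicate 1 lowest was not computed. Macrophage markers, of interest because macrophages express Prkcd and Prkcb, measured 98.7 and 149 TPM in the WT libraries against 148 and 190 TPM in the K823R ones. The PKC isoforms other than Prkch were not lowest in WT replicate 1. The part of macrophages and of the other listed cells in the PKC values was not tested. Erythroid markers instead had WT replicate 2 lowest for 4 of 5 genes, against 36.3% of all tested genes. Their sums were 491.5 and 245.1 TPM in the WT libraries against 318.8 and 334.4 TPM in the K823R ones. Within WT they moved the same way as the isoforms, and their part in the PKC values was not tested. Brain neuron genes Neurod6, Gad2 and Pcp2 were at most 0.08 TPM.

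**Figure D4:**
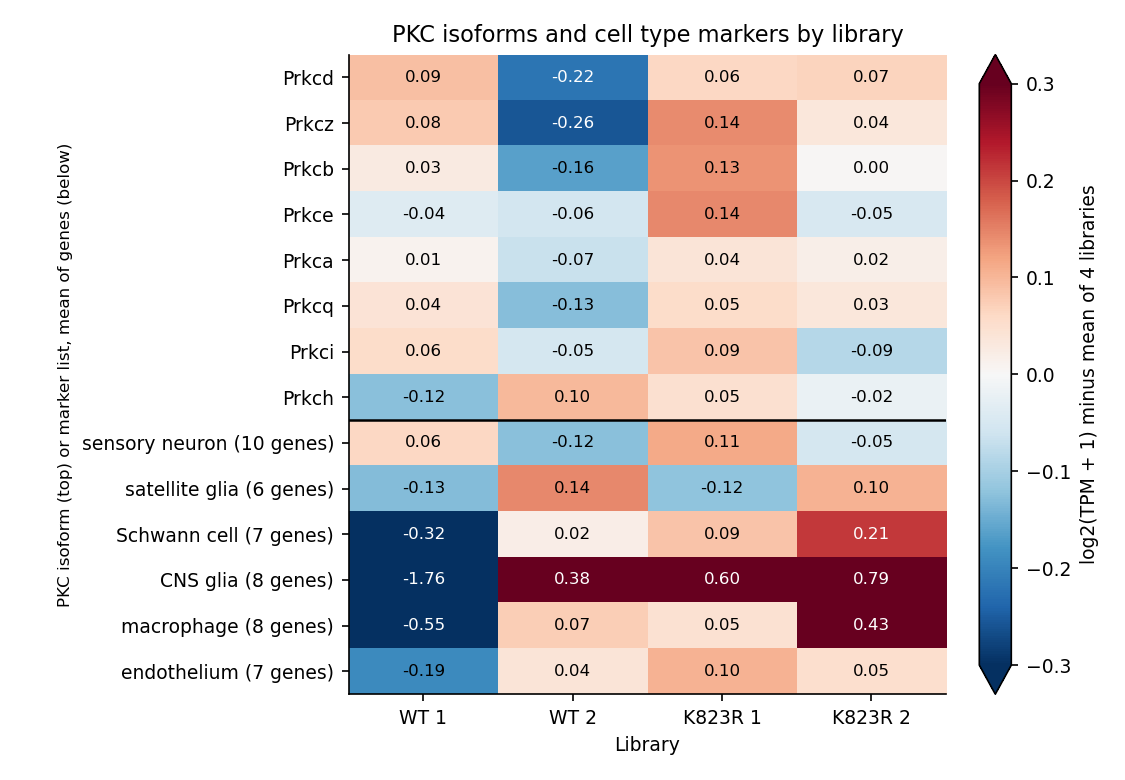
Deviation of log2(TPM + 1) from the mean of the 4 libraries, as numbers and colour (colour stops at 0.3), for the 8 isoforms and, below the line, for the mean of the tested genes of 6 marker lists. WT replicate 2 is negative for 7 isoforms and for sensory neurons (-0.12), while WT replicate 1 is negative for Schwann cells (-0.32), CNS glia (-1.76) and macrophages (-0.55).

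For the 2 most abundant isoforms, genes with the most similar profile over the 4 libraries were sought as a description. Prkcd was closest to St8sia3, a brain sialyltransferase, and to Foxp4, a forkhead transcription factor. St8sia3 measured 75.73 and 62.88 TPM in the WT libraries against 74.44 and 74.73 TPM in the K823R ones, the same order of libraries as Prkcd. Prkcz was closest to Mob3a (Pearson's r = 0.99999) and Tmem94 (r = 0.99992). With 4 libraries such values are common, and 160 tested genes reached r = 0.99 or more with Prkcd and 234 with Prkcz.

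Enzymes that make diacylglycerol, the activator of cPKC and nPKC, did not pass the test. Of 13 tested phospholipase C and Gq genes, 0 passed in either direction by limma. An unadjusted p under 0.05 was found for 0, against 4.76% of all genes. Of the 13, 11 were higher in K823R, against 57.4% of all genes. Their median log2 difference was 0.11, against 0.03 for all genes. Plcb3, the phospholipase C downstream of Gq in nociceptors and the most abundant of the list, measured 183.54 and 183.9 TPM in the WT libraries against 208.3 and 203.84 TPM in the K823R ones. The groups did not overlap, and the log2 difference was 0.17, SE 0.064 (95% interval -0.002 to 0.33, limma adjusted p = 0.918). Plcd4, a delta-type phospholipase C, measured 52.13 and 50.81 TPM in the WT libraries against 60.81 and 57.48 TPM in the K823R ones (limma adjusted p = 0.918). Plcg1, which acts downstream of receptor tyrosine kinases, averaged 14.6 TPM in WT and 16.95 in K823R in overlapping groups.

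Enzymes that remove diacylglycerol, and the other proteins that bind it, did not pass either. Of 12 tested diacylglycerol kinases and lipases 0 passed, 5 were higher (57.4% of all genes) and 7 lower, with a median of -0.04. Dgkz, the most abundant kinase of the list, averaged 195 TPM in WT and 207 in K823R, and the endocannabinoid-producing lipase Dagla 9.99 and 11.9 TPM. Dgkg averaged 10.2 TPM in WT and 9.37 in K823R and Dgki 26.2 and 24.4 TPM. Of 8 tested C1 domain proteins outside the kinases 0 passed, with 6 higher (57.4% of all genes) and a median of 0.04. Chn1, a Rac regulator, had a mean of 143.5 TPM in each group. The vesicle priming factor Unc13a averaged 28.9 TPM in WT and 32.6 in K823R, and its relative Unc13c 6.49 and 7.43 TPM. Rasgrp2, a Ras family exchange factor, averaged 23.3 TPM in WT and 19.3 in K823R. In both lists 0 genes had an unadjusted p under 0.05 by limma, against 4.76% of all genes.

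Factors that mature, anchor or resemble PKC were likewise without a call. Of 11 maturation factors 0 passed and 6 were higher, against 57.4% of all genes (median log2 difference 0.02). The kinase chaperone Cdc37 measured 215.18 and 203.07 TPM in the WT libraries against 235.26 and 226.16 TPM in the K823R ones, and its partner Hsp90ab1 averaged 1636 TPM in WT and 1804 in K823R (limma adjusted p = 0.918 for each). For both the groups did not overlap, and the PKC phosphatase Phlpp1 averaged 9.40 TPM in WT and 10.55 in K823R in overlapping groups. Of 11 tested scaffolds 0 passed, with 5 higher (57.4% of all genes), 6 lower and a median of -0.02. Pard6a, the adaptor that ties aPKC to the Par complex, measured 45.23 and 36.69 TPM in the WT libraries against 34.58 and 32.22 TPM in the K823R ones. Both K823R values were under both WT values, with a log2 difference of -0.28, SE 0.13 (limma adjusted p = 0.918). Pawr, an inhibitor of aPKC, measured 2.15 and 2.14 TPM in the WT libraries against 3.1 and 3.07 TPM in the K823R ones, a log2 difference of 0.38, SE 0.17 (limma adjusted p = 0.918). Sqstm1, the p62 scaffold, averaged 592 TPM in WT and 637 in K823R, and the caveolar protein Cavin3 51.9 and 58.2 TPM.

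Kinases related to PKC were also without a call. Of 5 tested protein kinase D and N genes 0 passed. The median log2 difference was -0.10, with 1 higher (57.4% of all genes) and 4 lower. Prkd2 measured 3.05 and 3.21 TPM in the WT libraries against 1.94 and 2.75 TPM in the K823R ones (limma adjusted p = 0.918). Prkd3 averaged 5.59 TPM in WT and 5.0 in K823R, and Pkn2 7.04 and 6.52 TPM. In the maturation, scaffold and related kinase lists 0 genes had an unadjusted p under 0.05 by limma, against 4.76% of all genes.

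PKC substrates did not pass as single genes. Of 12 tested, 0 passed and 0 had an unadjusted p under 0.05 by limma, against 4.76% of all genes. Of the 12, 10 were higher in K823R, against 57.4% of all genes. Their median log2 difference was 0.05, against 0.03 for all genes. Gap43, a growth cone protein phosphorylated by PKC, measured 206.85 and 204.82 TPM in the WT libraries against 222.5 and 250.99 TPM in the K823R ones. The groups did not overlap, with a log2 difference of 0.20, SE 0.084 (limma adjusted p = 0.918). Ppp1r14a, the smooth muscle phosphatase inhibitor CPI-17, measured 0.11 and 6.19 TPM in the WT libraries against 6.55 and 9.52 TPM in the K823R ones. WT replicate 1 stood apart for it, as it did for CNS glia markers, and the part of those markers was not tested. Marcksl1 averaged 20.4 TPM in WT and 26.2 in K823R in overlapping groups, and Add1, a cytoskeletal adducin and the most abundant of the list, 253 and 258 TPM.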

How the data were processed

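Per the labels' protocols, mRNA was isolated from total RNA, fragmented and sequenced in paired reads for 4 libraries (2 WT and 2 K823R, grouped by title). HISAT2, RSEM, edgeR and fastp 0.19.5 are listed in the submitters' processing notes with the build GRCm38.p6 but with no role for each. The authors deposited TPM per gene and library, and the columns sum to one and the same total. TPM keeps no read total, so no counting interval is given. The deposited group means were not used.

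Here, limma 3.58.1 (R 4.3.3) with a variance trend was fitted to log2(TPM + 1) of the 15390 genes that averaged 1 TPM or more, K823R minus WT. It was two-sided, with Benjamini-Hochberg adjustment over all genes and a threshold of 0.05. This scale understates changes of low genes. The fit was run on simulated data with equal noise for every gene and planted changes larger than any isoform difference. That run does not address differences of the size seen here. Named genes were the 8 isoforms, Trpv1, and from each list of pathway genes the 3 with the smallest p and the most abundant one. Some genes that this rule or the marker lists would name are not reported here. The members and lists were chosen with earlier results of these data known. Copies were searched with BLAST 2.17.0. Tables used pandas 2.3.3 and plots matplotlib 3.10.9. Alternatives were another pseudocount, no filter, 2 rescalings, no variance trend, a replicate block and each library left out. A scaling to sensory neuron markers was added after seeing the data.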

Additional observations from a re-analysis of the deposited data

How the results depend on the processing

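No isoform reached an adjusted p below 0.05 under any of the 11 alternatives run (limma, 0.656 to 1.0). The count of all genes called was 1 as reported and 0 with no filter on low values, 0 with no variance trend and 0 with the replicate block. It was 0 to 0 with each library left out and 3 relative to sensory neuron markers, where 40.0% of all genes were higher in K823R. The cause was not tested. The isoforms' median log2 difference was 0.091 as reported and 0.014 to 0.138 with each library left out, and 0.029 relative to sensory neuron markers. With 3 of the alternatives (no filter, no variance trend and the replicate block) the fitted differences cannot move. Of 64 isoform values under the other 8, 55 kept their direction and 9 did not. With each library left out, Prkcd ran from -0.026 (without WT replicate 2) to 0.284 and Prkce from -0.000405 (without K823R replicate 1) to 0.191. Prkch ran from -0.085 (without WT replicate 1; -0.007 without K823R replicate 1) to 0.138. Prkca ran from 0.018 to 0.094. Prkcb ran from 0.042 (without WT replicate 2) to 0.232, Prkcq from 0.003 to 0.172 and Prkcz from 0.011 to 0.345, the last 2 also lowest without WT replicate 2. Prkci ran from -0.087 to 0.084 (without K823R replicate 2; 0.053 without WT replicate 1). Quantile normalization gave Prkch -0.023, and scaling to neuron markers gave it -0.036 and Prkca -0.006. The replicate block called 0 of the 8 isoforms. Over genes, the deviations of same-numbered libraries had a correlation of 0.05. Whether same-numbered libraries were prepared together was not tested. Depth is unknown, and 2 libraries per group limit the precision of every difference.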
